A study of Drosophila melanogaster with 14 samples.

Results

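Nuclear RNA of γ Kenyon cells of adult Drosophila melanogaster was compared with that of α′/β′ Kenyon cells, using 4 γ and 4 α′/β′ libraries of a series of 14. All 8646 genes with at least 10 transcripts per 1000000 (TPM) in at least 1 of the 14 libraries were compared, out of 13931 genes in the table, and no measured difference was used to choose them. The γ libraries came from nuclei labelled by the split-GAL4 drivers MB607B (γd) and MB131B (γm+d), and the α′/β′ libraries from MB370B (α′/β′ap+m) and MB418B (α′/β′m), with 2 replicates per driver. In all of them the driver expressed the nuclear-envelope tag UNC84-2XGFP, and the study's methods place the drivers and the reporter in the isogenic MJ2 background, a Canton-S derivative. Tagged nuclei were purified from frozen heads of flies of both sexes, 2 to 5 days old. The drivers are nested: MB131B also labels some γd cells and MB370B some α′/β′m cells, so that each class of 4 libraries is 2 overlapping cell populations sequenced in duplicate.

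Kenyon cells are the intrinsic neurons of the mushroom body, the insect centre of olfactory learning. They receive odour input from projection neurons in the calyx and send their axons into the lobes, where dopaminergic neurons and mushroom body output neurons meet them compartment by compartment. The γ neurons are born first, lose their larval axon branches at metamorphosis and grow an adult-specific medial lobe. The α′/β′ neurons are born next, and their branched axons form the α′ and β′ lobes. The comparison addresses how far the adult nuclear transcriptomes of these 2 classes differ, in genes for receiving dopamine and peptides, for surface recognition and for regulation.

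The libraries differed in how many genes were seen. The γd replicates held 5632 and 7601 genes above 0 TPM and the other 6 libraries 8836 to about 11360 genes, a difference between the classes of p = 0.0571 (exact permutation test, two-sided, 4 against 4 libraries, where the smallest possible p is 0.0286; adjusted p over 13 library measures = 0.186). Among genes with a mean of at least 100 TPM, the robust SD of the log2 ratio between replicates was 0.125 for α′/β′ap+m, against 0.906 for γd, 0.615 for γm+d, 0.595 for α′/β′m and 0.282 to 0.963 for the 3 α/β subtypes. The α′/β′ap+m replicates thus differed far less than any other pair. The labels and the study's methods call them biological duplicates, TPM values do not allow a test against sampling noise, and counts of calls are therefore also given with their mean as 1 library. The pan-neuronal gene elav, an RNA-binding protein, had 1914 and 1653 TPM in γd and 1398 and 1069.7 TPM in γm+d, versus 1712 and 1614 TPM in α′/β′ap+m and 1370.2 and 1190.0 TPM in α′/β′m. The glial transcription factor gene repo reached at most 2.18 TPM in any of the 8. ey, a transcription factor made in all Kenyon cells, had 1273 to 2382 TPM in γ and 1632 to 2854 TPM in α′/β′, with the groups overlapping. Of these 3 genes elav and ey were thus high in all 8 libraries and repo was nearly absent. Other markers of the same lists differed, with the Kenyon cell marker eyg at 0 to 2.97 TPM and the glial marker Eaat2 at 20.95 to 304 TPM. Fat body, photoreceptor and muscle markers were also above 0. The summed muscle markers stood at 1251 and 604 TPM in γd and at 223 to 509.7 TPM in the other 6, and the summed glial markers at 68.6 to 349.9 TPM in γ and 295 to 522 TPM in α′/β′. The sum of 14 Kenyon cell markers, of which ab, Mef2, sNPF and Fas2 were called below, was 17440 to 21880 TPM in γ and 13040 to 15300 TPM in α′/β′. It did not overlap, and neither did the sum of 7 monoaminergic markers, which was mostly DAT. None of the 11 marker sums passed an adjusted exact permutation test between the classes (lowest adjusted p = 0.186). That test could not decide, since these 2 fully separated sums were already at its smallest possible p of 0.0286. Adjusted over 13 measures, that p did not fall under 0.05, and no conclusion is drawn from it. The part of other cells in the results was not tested.

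A gene was called where limma gave an adjusted p (Benjamini-Hochberg over all 8646 genes) under 0.05 and at least a 2-fold difference. Differences are on the scale of quantile-normalized log2(TPM + 1), γ minus α′/β′, which understates the change of low genes. By this rule 121 genes (1.4% of those tested) were higher in γ and 123 (1.42%) higher in α′/β′, or 244 (2.82%) in all, and 176 of them differed by 4-fold or more. The 4 γ libraries lay wholly above the 4 α′/β′ libraries in 88 of the 121, a state found in 2.13% of all genes tested. They lay wholly below in 121 of the 123, against 7.73% of all genes tested. Since nuclei were pooled, fewer cells with a transcript and less of it per nucleus cannot be told apart. Without quantile normalization the split became 58 against 141, and the median over all genes moved from -0.16 to -0.88 (to -0.50 with median-ratio scaling of TPM, which gave 119 and 112), so directions below are relative to that median. With the α′/β′ap+m replicates averaged, 84 genes were higher in γ and 101 higher in α′/β′, of which 84 and 96 were among the 121 and 123. That setting ended the calls of 10 genes named below, GluClalpha, Pde9, norpA, CCKLR-17D3, DIP-gamma, side, trn, her, Kr-h1 and kek3 (adjusted p = 0.0543 to 0.126). The libraries of 2 subtypes were taken as replicates of a class. With 1 value per subtype 56 genes were called in all, against 562 in the subtype model and 1275 with library quality weights. Without both γd libraries the counts were 87 and 80. Of the 121 and the 123, only 65 and 68 were still called in that setting. There, 112 of the 121 and 114 of the 123 still differed by 2-fold or more in the same direction.

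**Figure D1:**
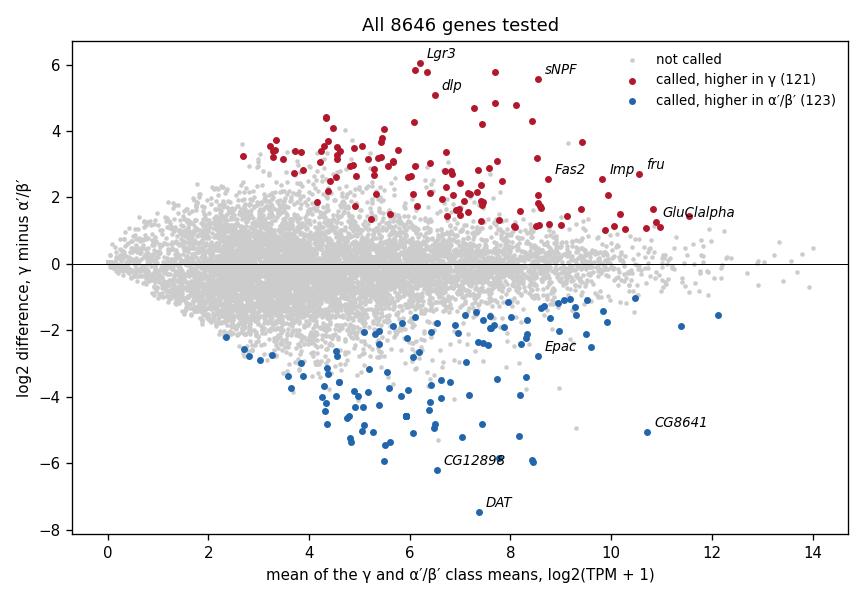
Each point is 1 of 8646 genes, with the mean level of both classes on the x axis (log2 of TPM + 1) and the log2 difference γ minus α′/β′ on the y axis. Red points are the 121 genes called higher in γ and blue points the 123 called higher in α′/β′, which reach further from 0, down to DAT at -7.46.

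The largest difference was that of DAT (FBgn0034136; chromosome 2R, 16558567 to 16565238, minus strand of the BDGP6 assembly, as for all positions below), the plasma membrane transporter that takes dopamine back up. Its levels were 0 and 0.38 TPM in γd and 0 and 2.31 TPM in γm+d, against 394 and 399.7 TPM in α′/β′ap+m and 184 and 339.6 TPM in α′/β′m (log2 difference -7.46, SE 0.72, adjusted p = 1.28e-05). The 4 γ libraries were at or near 0 and none of the 4 α′/β′ libraries below 184 TPM, and the 6 α/β libraries held 0 to 8.15 TPM. Genes that mark dopaminergic neurons did not share this pattern. ple, tyrosine hydroxylase, was at 2.1 to 14.2 TPM in α′/β′ and 0.31 to 13.3 TPM in γ, and Vmat, the vesicular monoamine transporter, at 2.09 to 17.5 TPM and 4.73 to 10.8 TPM. Of 14 tested genes for dopamine receptors and monoamine handling, DAT alone was called in either direction (7.14%, against 2.82% of all genes tested). A pair of dopamine receptor genes with known roles in olfactory learning overlapped between the classes: Dop1R1 had 655 to 1243 TPM in γ and 631 to 1079 TPM in α′/β′ (log2 difference -0.28, SE 0.33, adjusted p = 0.751), and Dop1R2 214 to 397 TPM and 342 to 441 TPM (log2 difference -0.41, SE 0.25, adjusted p = 0.471).

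Among receptors for octopamine, serotonin and tyramine (11 tested) 1 was called, higher in γ (9.09%, against 2.82% of all genes tested). Oamb (FBgn0024944; chromosome 3R, 20689018 to 20714577, minus strand), an octopamine receptor needed in the mushroom body for appetitive learning, had 251 and 177 TPM in γd and 162 and 319.7 TPM in γm+d, against 59.4 and 53.5 TPM in α′/β′ap+m and 70.6 and 75.7 TPM in α′/β′m (log2 difference 2.12, SE 0.38, adjusted p = 0.00272). All γ libraries lay above all α′/β′ libraries, and the α/β libraries held 205 to 892 TPM. Of 35 neuropeptide and hormone receptor genes tested, 5 were called higher in γ and none higher in α′/β′ (14.3% called, against 2.82% of all genes tested). The list's median was 0.74 against -0.16 over all genes. Lgr3 (FBgn0039354; chromosome 3R, 25665809 to 25677214, plus strand), which encodes a receptor of the relaxin family that answers to Ilp8, stood at 4.09 and 46.8 TPM in γd and 188 and 337 TPM in γm+d, versus 0.48 and 0.89 TPM in α′/β′ap+m and 0.05 and 3.58 TPM in α′/β′m (log2 difference 6.04, SE 0.78, adjusted p = 0.000139). The lowest γ value, in γd replicate 1, was only just above the highest α′/β′ value, while both γm+d libraries were far above both. The α/β libraries held 0 to 2.66 TPM. hec (FBgn0030437; chromosome X, 12950436 to 12957462, minus strand), a receptor of the secretin family known for a role in male courtship, was at 125 and 264 TPM in γd and 115 and 124 TPM in γm+d and at 1.52 and 1.11 TPM in α′/β′ap+m and 3.49 and 11 TPM in α′/β′m (log2 difference 5.78, SE 0.70, adjusted p = 8.58e-05). γd replicate 2 was the highest, and no α′/β′ library came near any γ library.

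The other called receptors were lower. TkR86C (FBgn0004841; chromosome 3R, 10737592 to 10751228, minus strand), a tachykinin-family receptor, had 74.2 and 63.2 TPM in γd and 55.1 and 107 TPM in γm+d, versus 6.39 and 22.4 TPM in α′/β′ap+m and 2.97 and 11.6 TPM in α′/β′m (log2 difference 3.77, SE 0.87, adjusted p = 0.0205). CCKLR-17D3 (FBgn0030954; chromosome X, 18764483 to 18774027, minus strand), a receptor for the peptide drosulfakinin, had 14.1 and 6.8 TPM in γd and 10.2 and 32.3 TPM in γm+d, versus 0.16 and 0.51 TPM in α′/β′ap+m and 2.11 and 5.65 TPM in α′/β′m (log2 difference 3.42, SE 0.89, adjusted p = 0.0436). SPR (FBgn0029768; chromosome X, 5446656 to 5494012, plus strand), the receptor for sex peptide and myoinhibitory peptides, had 10.2 and 36.2 TPM in γd and 11.4 and 19 TPM in γm+d, versus 3.38 and 4.71 TPM in α′/β′ap+m and 6.11 and 4.49 TPM in α′/β′m (log2 difference 2.73, SE 0.61, adjusted p = 0.0156), and it is the fifth gene of the list, named after its values were seen. In all 3 the groups did not overlap, and SPR shares 999 exonic bases with frma on the opposite strand. The call of TkR86C was lost without replicate 1 or 2 of γd, replicate 1 of α′/β′ap+m, or replicate 1 or 2 of α′/β′m (adjusted p = 0.0501 to 0.0717) and without both γd libraries (log2 difference 3.44, adjusted p = 0.215). That of CCKLR-17D3 was lost without any 1 of the 8 libraries (adjusted p = 0.0557 to 0.14) and without both γd libraries (log2 difference 3.34, adjusted p = 0.251), and that of SPR without replicate 2 of γd, replicate 1 of α′/β′ap+m, or replicate 2 of α′/β′m (adjusted p = 0.0532 to 0.0708) and without both γd libraries (log2 difference 1.95, adjusted p = 0.193).

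Of 25 neuropeptide genes tested, 1 was called in each direction (8% called, against 2.82% of all genes tested). sNPF (FBgn0032840; chromosome 2L, 20027915 to 20056373, plus strand), the precursor of short neuropeptide F and a known product of Kenyon cells, had 564 and 709 TPM in γd and 959.7 and 668 TPM in γm+d, against 22.3 and 24.3 TPM in α′/β′ap+m and 21.2 and 14.3 TPM in α′/β′m (log2 difference 5.56, SE 0.33, adjusted p = 1.96e-08). No α′/β′ library exceeded 24.3 TPM and no γ library was below 564 TPM, with the α/β libraries at 306 to 595 TPM. Ilp1 (FBgn0044051; chromosome 3L, 9798420 to 9799050, plus strand), an insulin-like peptide, went the other way, with 0.86 and 0.65 TPM in γd and 3.99 and 43.7 TPM in γm+d, versus 291 and 276 TPM in α′/β′ap+m and 171 and 592 TPM in α′/β′m (log2 difference -4.80, SE 0.92, adjusted p = 0.0048). γm+d replicate 2 stood apart from the other γ libraries, and the α/β libraries ranged over 0.97 to 234 TPM. Ilp1 lies inside CG32052 and shares 258 exonic bases with it on the same strand, so that reads of the shared bases can be assigned to either gene. Its call was lost without both γd libraries (log2 difference -4.11, adjusted p = 0.0754).

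Of 22 genes of GABA and glutamate signalling, 2 were called (9.09%, against 2.82% of all genes tested). Both are channels that glutamate opens and both were higher in γ. GluClalpha (FBgn0024963; chromosome 3R, 19730715 to 19775231, plus strand), the glutamate-gated chloride channel that inhibits insect neurons, had 2675 and 4012 TPM in γd and 2509 and 1877 TPM in γm+d, versus 726 and 743 TPM in α′/β′ap+m and 1419.9 and 1169 TPM in α′/β′m (log2 difference 1.25, SE 0.30, adjusted p = 0.0281). GluRIB (FBgn0264000; chromosome 3L, 9251978 to 9288522, plus strand), an AMPA-type glutamate receptor subunit, had 288 and 182 TPM in γd and 197 and 249 TPM in γm+d, versus 139 and 133 TPM in α′/β′ap+m and 79.4 and 87.2 TPM in α′/β′m (log2 difference 1.30, SE 0.31, adjusted p = 0.0275). The groups did not overlap in either gene, and both differences were under 3-fold. The call of GluClalpha was lost without replicate 1 or 2 of γd, replicate 1 of γm+d, or replicate 1 or 2 of α′/β′ap+m (adjusted p = 0.0551 to 0.113) and without both γd libraries (log2 difference 1.04, adjusted p = 0.257). That of GluRIB was lost without replicate 1 or 2 of γd, replicate 1 of γm+d, or replicate 1 or 2 of α′/β′m (adjusted p = 0.0541 to 0.0964) and without both γd libraries (log2 difference 1.14, adjusted p = 0.177). Rdl, a GABA-A receptor subunit abundant in Kenyon cells, had 3627 to 9509.7 TPM in γ and 6994 to 11677 TPM in α′/β′ (log2 difference -0.63, SE 0.18, adjusted p = 0.0809). No gene of acetylcholine synthesis and transport (4 tested, 1 at an unadjusted p under 0.05 in limma), of the acetylcholine receptors (12 tested, 2 at that p) or of the innexins, which form gap junctions (5 tested, 0 at that p), was called.

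Of 35 genes for cAMP and G protein signalling, 1 was called higher in γ and 2 higher in α′/β′ (8.57% against 2.82% of all genes tested). Epac (FBgn0085421; chromosome 2R, 6759715 to 6798941, minus strand), a cAMP-activated exchange factor for the small GTPase Rap1, had 58.4 and 71.5 TPM in γd and 89 and 125 TPM in γm+d, against 685 and 712 TPM in α′/β′ap+m and 468 and 761 TPM in α′/β′m (log2 difference -2.76, SE 0.33, adjusted p = 8.72e-05). The highest γ value was 125 TPM and the lowest α′/β′ value 468 TPM, and the α/β libraries held 26.8 to 77.6 TPM. norpA (FBgn0262738; chromosome X, 4322626 to 4365408, plus strand), the phospholipase C of phototransduction, had 505 and 399 TPM in γd and 81.5 and 72.6 TPM in γm+d, versus 682 and 668 TPM in α′/β′ap+m and 829 and 733 TPM in α′/β′m (log2 difference -2.003, SE 0.51, adjusted p = 0.0379). Here the γ class was not uniform: γd lay above γm+d in limma's subtype model (log2 difference 2.57, SE 0.38, adjusted p = 0.0142). norpA is also a photoreceptor marker. Of the 18 markers on that list norpA was the one called, and ninaE, the main rhodopsin of the eye, overlapped between the classes at 341 to 912 TPM in γ and 328 to 1280.0 TPM in α′/β′. Pde9 (FBgn0259171; chromosome X, 12785563 to 12897327, minus strand), of a family of cGMP phosphodiesterases, had 126 and 236 TPM in γd and 195 and 143 TPM in γm+d, versus 47.2 and 43 TPM in α′/β′ap+m and 118 and 93.8 TPM in α′/β′m (log2 difference 1.67, SE 0.42, adjusted p = 0.034). The call of norpA was lost without replicate 1 or 2 of γm+d, replicate 1 or 2 of α′/β′ap+m, or replicate 1 or 2 of α′/β′m (adjusted p = 0.0787 to 0.128), and that of Pde9 without replicate 1 or 2 of γd, replicate 1 of γm+d, or replicate 1 or 2 of α′/β′ap+m (adjusted p = 0.0505 to 0.128) and without both γd libraries (log2 difference 1.41, adjusted p = 0.228). The classical memory genes rut and dnc, an adenylyl cyclase and a cAMP phosphodiesterase, did not reach a 2-fold difference. rut had 949 to 1829 TPM and 714 to 1043 TPM (log2 difference 0.52, SE 0.24, adjusted p = 0.326), and dnc 1680.1 to 2273 TPM and 971 to 1110.1 TPM (log2 difference 0.74, SE 0.20, adjusted p = 0.0501), with the γ libraries above the α′/β′ libraries in dnc.

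**Figure D2:**
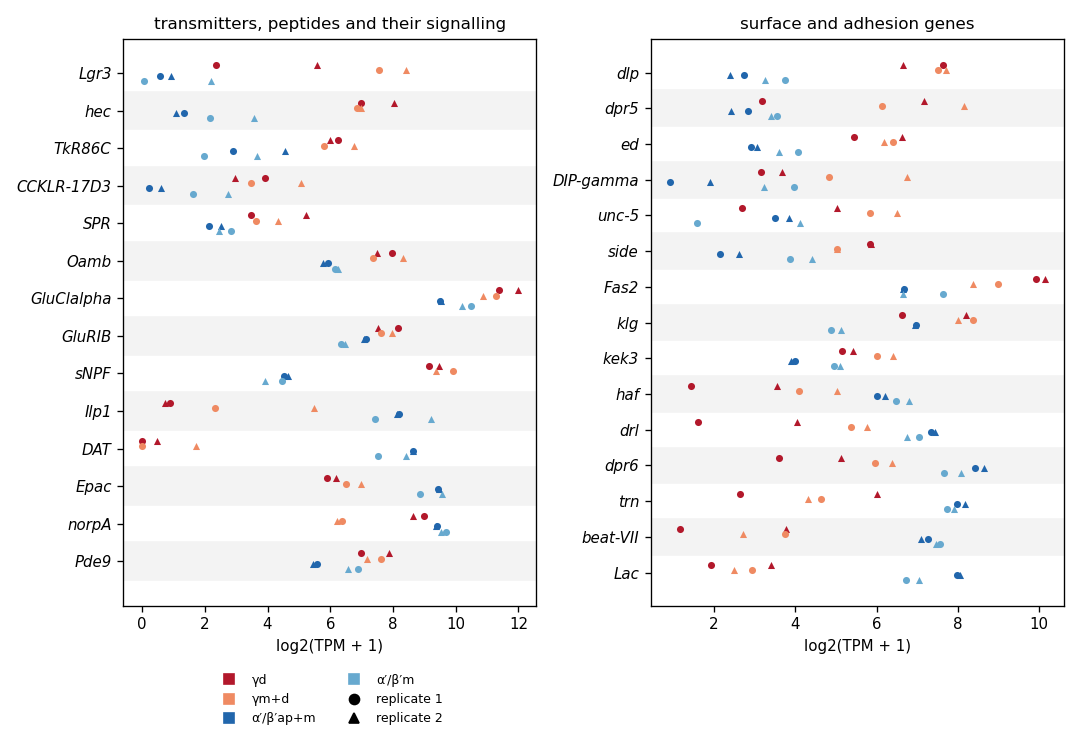
Each symbol is the level of a gene in 1 library, as log2(TPM + 1), for 14 genes of transmission and peptide signalling (left) and 15 surface and adhesion genes (right); colours give the 4 subtypes and shapes the 2 replicates. DAT spans 184 to 399.7 TPM in α′/β′ and 0 to 2.31 TPM in γ, while γd and γm+d separate within norpA.

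Surface genes were called in both directions. Of 83 genes for axon guidance, adhesion and contact, 6 were higher in γ and 4 higher in α′/β′, or 12% called. Of 49 Dpr, DIP, Beat and Side genes 3 and 2 were, or 10.2%, against 2.82% of all genes tested. dlp (FBgn0041604; chromosome 3L, 14632601 to 14671609, plus strand), a glypican that carries Wnt and other ligands on the cell surface, had 198 and 99 TPM in γd and 179.9 and 209.5 TPM in γm+d, against 5.67 and 4.27 TPM in α′/β′ap+m and 12.3 and 8.5 TPM in α′/β′m (log2 difference 5.09, SE 0.63, adjusted p = 0.000105). No γ library was below 99.0 TPM and no α′/β′ library above 12.3 TPM, with 1.07 to 7.39 TPM in α/β. Fas2 (FBgn0000635; chromosome X, 4132887 to 4206093, minus strand), an adhesion molecule of the immunoglobulin superfamily whose antibody stain outlines the γ and α/β lobes, had 974 and 1129 TPM in γd and 506 and 329 TPM in γm+d, versus 102 and 98.8 TPM in α′/β′ap+m and 196 and 98.8 TPM in α′/β′m (log2 difference 2.55, SE 0.37, adjusted p = 0.000471). γd was above γm+d in both replicates, but that difference did not pass (adjusted p = 0.115). The 4 α′/β′ libraries were all far lower. ed (FBgn0000547; chromosome 2L, 4031377 to 4115749, plus strand), an immunoglobulin-domain adhesion protein, had 42.1 and 96.8 TPM in γd and 83.7 and 71.5 TPM in γm+d, versus 6.5 and 7.35 TPM in α′/β′ap+m and 15.8 and 11 TPM in α′/β′m (log2 difference 3.66, SE 0.69, adjusted p = 0.00407), without overlap. unc-5 (FBgn0034013; chromosome 2R, 15340472 to 15368300, plus strand), a netrin receptor, had 5.45 and 31.5 TPM in γd and 56 and 90.1 TPM in γm+d, versus 10.4 and 13.4 TPM in α′/β′ap+m and 2 and 16.3 TPM in α′/β′m (log2 difference 2.99, SE 0.57, adjusted p = 0.00441), and its groups overlapped through γd replicate 1. klg (FBgn0017590; chromosome 3R, 22899284 to 22961731, plus strand), an immunoglobulin-domain protein used in long-term memory, had 97.1 and 292 TPM in γd and 329.7 and 257 TPM in γm+d, versus 125 and 122 TPM in α′/β′ap+m and 28.2 and 33.8 TPM in α′/β′m (log2 difference 2.17, SE 0.53, adjusted p = 0.0282). Its groups overlapped too, since γd replicate 1 lay below both α′/β′ap+m libraries. kek3 (FBgn0028370; chromosome 2L, 15552723 to 15583978, plus strand), a kekkon with leucine-rich repeats named after its values were seen, had 34.2 and 41.8 TPM in γd and 63 and 83.3 TPM in γm+d, versus 14.8 and 13.7 TPM in α′/β′ap+m and 30 and 33.5 TPM in α′/β′m (log2 difference 2.11, SE 0.52, adjusted p = 0.0287). The call of unc-5 was lost without normalization beyond TPM (log2 difference 1.75, adjusted p = 0.244), with median-ratio scaling (adjusted p = 0.0861) and with 1 value per subtype (adjusted p = 0.103). The call of ed was lost without both γd libraries (log2 difference 3.30, adjusted p = 0.0571). That of klg was lost without replicate 2 of γd, replicate 1 or 2 of γm+d, or replicate 1 or 2 of α′/β′m (adjusted p = 0.0505 to 0.103) and without both γd libraries (log2 difference 2.28, adjusted p = 0.0721), and that of kek3 without replicate 1 or 2 of γd, replicate 1 or 2 of γm+d, or replicate 1 or 2 of α′/β′ap+m (adjusted p = 0.0527 to 0.107) and without both γd libraries (log2 difference 2.07, adjusted p = 0.115).

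Of the 4 guidance and adhesion genes higher in α′/β′, Lac (FBgn0010238; chromosome 2R, 12453190 to 12465630, plus strand), an immunoglobulin-domain protein of septate junctions, differed most. It had 2.79 and 9.47 TPM in γd and 6.62 and 4.6 TPM in γm+d, versus 250.2 and 266 TPM in α′/β′ap+m and 104 and 130.0 TPM in α′/β′m (log2 difference -4.02, SE 0.76, adjusted p = 0.00451). No γ library was above 9.47 TPM. trn (FBgn0010452; chromosome 3L, 13114271 to 13118077, plus strand), a leucine-rich repeat protein, had 5.26 and 63.7 TPM in γd and 23.7 and 18.7 TPM in γm+d, versus 250.4 and 288 TPM in α′/β′ap+m and 209.8 and 239 TPM in α′/β′m (log2 difference -2.96, SE 0.77, adjusted p = 0.0423). drl (FBgn0015380; chromosome 2L, 19190342 to 19208621, plus strand), a receptor for Wnt5 that steers axons in the mushroom body, had 2.05 and 15.4 TPM in γd and 40.2 and 53.4 TPM in γm+d, versus 162 and 173 TPM in α′/β′ap+m and 131 and 106 TPM in α′/β′m (log2 difference -2.04, SE 0.43, adjusted p = 0.0109). haf (FBgn0261509; chromosome 2L, 1555129 to 1609389, plus strand), another leucine-rich repeat protein, had 1.7 and 10.8 TPM in γd and 15.9 and 31.6 TPM in γm+d, versus 63.5 and 73 TPM in α′/β′ap+m and 88.6 and 111 TPM in α′/β′m (log2 difference -1.86, SE 0.41, adjusted p = 0.0146). In all 4 genes every γ library lay below every α′/β′ library, and the γd libraries tended to be lowest in drl and haf. The call of trn was lost without replicate 1 of γd, replicate 1 or 2 of γm+d, replicate 1 or 2 of α′/β′ap+m, or replicate 1 or 2 of α′/β′m (adjusted p = 0.082 to 0.107) and without both γd libraries (log2 difference -3.34, adjusted p = 0.0652). That of drl was lost without both γd libraries (log2 difference -1.38, adjusted p = 0.142), and that of haf without replicate 1 or 2 of α′/β′m (adjusted p = 0.0515 to 0.0619) and without both γd libraries (log2 difference -1.56, adjusted p = 0.107).

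Dpr proteins bind DIP proteins, and Beat proteins bind Side proteins, as pairs of immunoglobulin-domain partners on neighbouring neurons. Each class had called members of both pairings. dpr5 (FBgn0037908; chromosome 3R, 11499984 to 11505951, plus strand) had 8.09 and 144 TPM in γd and 68.7 and 281 TPM in γm+d, versus 6.13 and 4.3 TPM in α′/β′ap+m and 10.8 and 9.57 TPM in α′/β′m (log2 difference 4.29, SE 0.64, adjusted p = 0.000519), with γd replicate 1 within the α′/β′ range. DIP-gamma (FBgn0039617; chromosome 3R, 28925004 to 28970372, minus strand) had 7.91 and 11.8 TPM in γd and 27.4 and 107 TPM in γm+d, versus 0.87 and 2.72 TPM in α′/β′ap+m and 14.7 and 8.41 TPM in α′/β′m (log2 difference 3.27, SE 0.78, adjusted p = 0.0257), and its groups overlapped through both γd libraries. side (FBgn0016061; chromosome 3R, 27375088 to 27437482, minus strand) had 55.8 and 56.7 TPM in γd and 31.3 and 31.8 TPM in γm+d, versus 3.46 and 5.07 TPM in α′/β′ap+m and 13.6 and 20.4 TPM in α′/β′m (log2 difference 2.96, SE 0.71, adjusted p = 0.0256), without overlap. On the α′/β′ side, dpr6 (FBgn0040823; chromosome 3L, 9974651 to 10139360, plus strand) had 11.1 and 33.6 TPM in γd and 61.2 and 82.4 TPM in γm+d, versus 343 and 395 TPM in α′/β′ap+m and 201 and 267 TPM in α′/β′m (log2 difference -2.37, SE 0.44, adjusted p = 0.00389). beat-VII (FBgn0250908; chromosome 3R, 26645282 to 26681966, minus strand) had 1.24 and 12.7 TPM in γd and 12.5 and 5.58 TPM in γm+d, versus 152 and 136 TPM in α′/β′ap+m and 187 and 174 TPM in α′/β′m (log2 difference -3.65, SE 0.47, adjusted p = 0.000139). Neither gene overlapped between the classes. The call of dpr5 was lost without normalization beyond TPM (log2 difference 3.11, adjusted p = 0.0645). The call of DIP-gamma was lost without replicate 1 or 2 of γm+d, replicate 1 or 2 of α′/β′ap+m, or replicate 2 of α′/β′m (adjusted p = 0.0576 to 0.0979) and without both γd libraries (log2 difference 3.77, adjusted p = 0.0596). That of side was lost without replicate 1 or 2 of γd, replicate 1 of γm+d, or replicate 1 or 2 of α′/β′ap+m (adjusted p = 0.0535 to 0.0941) and without both γd libraries (log2 difference 2.19, adjusted p = 0.302), and that of dpr6 without both γd libraries (log2 difference -1.90, adjusted p = 0.0781).

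Among 53 regulators of mushroom body and temporal identity, 5 were higher in γ and none higher in α′/β′ (9.43% called, against 2.82% of all genes tested). ab (FBgn0264442; chromosome 2L, 11210678 to 11261080, plus strand), a transcription factor with BTB and zinc finger domains, had 393 and 440.1 TPM in γd and 320.5 and 437 TPM in γm+d, against 5.73 and 5.27 TPM in α′/β′ap+m and 10.6 and 26.8 TPM in α′/β′m (log2 difference 5.76, SE 0.63, adjusted p = 4.19e-05). Its γ libraries were all above 320 TPM, and the α/β libraries held 7.97 to 50.5 TPM. Imp (FBgn0285926; chromosome X, 10787869 to 10824277, minus strand), an RNA-binding protein that marks early-born neurons in mushroom body lineages, had 1422 and 2145 TPM in γd and 1712 and 937 TPM in γm+d, versus 372 and 356 TPM in α′/β′ap+m and 204 and 118 TPM in α′/β′m (log2 difference 2.57, SE 0.46, adjusted p = 0.00285). The groups did not overlap, though α′/β′ libraries still held over 117 TPM and the α/β libraries 55.7 to 182 TPM. chinmo, a temporal identity factor with BTB and zinc finger domains, was not called, although every γ library lay below every α′/β′ library, at 113 to 333 TPM in γ and 491 to 806 TPM in α′/β′ (log2 difference -1.39, SE 0.39, adjusted p = 0.0643). Mef2 (FBgn0011656; chromosome 2R, 9913496 to 9958858, minus strand), a MADS-box transcription factor of all Kenyon cells, had 806 and 453 TPM in γd and 856 and 1182 TPM in γm+d, versus 269 and 301 TPM in α′/β′ap+m and 296 and 304 TPM in α′/β′m (log2 difference 1.45, SE 0.32, adjusted p = 0.0146). Its 4 α′/β′ libraries were close together and its γ libraries spread more widely. bol (FBgn0011206; chromosome 3L, 9097629 to 9134405, minus strand), an RNA-binding protein of the DAZ family, had 556 and 953 TPM in γd and 689 and 413 TPM in γm+d, versus 67.4 and 48.2 TPM in α′/β′ap+m and 117 and 89.9 TPM in α′/β′m (log2 difference 3.19, SE 0.35, adjusted p = 5.29e-05). her (FBgn0001185; chromosome 2L, 16677185 to 16679691, plus strand), a zinc finger protein of sex determination, had 1887 and 1231 TPM in γd and 1494 and 1289 TPM in γm+d, versus 462 and 433 TPM in α′/β′ap+m and 957 and 773 TPM in α′/β′m (log2 difference 1.14, SE 0.28, adjusted p = 0.0335), and its call was lost without replicate 1 or 2 of γd, replicate 1 or 2 of γm+d, or replicate 1 or 2 of α′/β′ap+m (adjusted p = 0.0505 to 0.128) and without both γd libraries (log2 difference 1.11, adjusted p = 0.166).

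The sex determination list held 12 tested genes, of which her and fru were called, both higher in γ (16.7%, against 2.82% of all genes tested). The list's median difference was -0.04. fru (FBgn0004652; chromosome 3R, 18414273 to 18545586, minus strand) encodes BTB zinc finger proteins that build male courtship behaviour, and the flies here were of both sexes. It had 2596 and 3399.5 TPM in γd and 2746 and 1786 TPM in γm+d, against 268 and 282 TPM in α′/β′ap+m and 589.7 and 386 TPM in α′/β′m (log2 difference 2.70, SE 0.53, adjusted p = 0.00584). The call of fru was lost without both γd libraries (log2 difference 2.51, adjusted p = 0.0795). Of 50 homeodomain and bHLH genes tested 3 were called, all higher in γ (6%, against 2.82% of all genes tested). Vsx1 (FBgn0263511; chromosome X, 5594255 to 5612865, plus strand), a homeobox gene best known from the optic lobe, was low, with 27 and 24.8 TPM in γd and 18.8 and 22.4 TPM in γm+d, versus 2.69 and 4.02 TPM in α′/β′ap+m and 5.41 and 2.2 TPM in α′/β′m (log2 difference 3.36, SE 0.68, adjusted p = 0.00755). Its groups did not overlap, and its call was lost without both γd libraries (log2 difference 2.77, adjusted p = 0.113). cwo (FBgn0259938; chromosome 3R, 10388258 to 10400752, plus strand), a bHLH repressor of the circadian clock, had 315 and 125 TPM in γd and 176 and 150.3 TPM in γm+d, versus 39.6 and 32.9 TPM in α′/β′ap+m and 35.2 and 38.7 TPM in α′/β′m (log2 difference 2.71, SE 0.33, adjusted p = 8.58e-05), and it was the one call among 19 clock genes. Kr-h1 (FBgn0266450; chromosome 2L, 6082603 to 6096498, plus strand), a zinc finger target of juvenile hormone, was the one call among 20 hormone response genes and was higher in α′/β′, with 68.2 and 148 TPM in γd and 181 and 186 TPM in γm+d, versus 387 and 368 TPM in α′/β′ap+m and 319 and 325 TPM in α′/β′m (log2 difference -1.15, SE 0.25, adjusted p = 0.0146). The 1 call each made 5.26% of the clock genes and 5% of the hormone response genes, against 2.82% of all genes tested. Kr-h1 contains CG45075 and shares 4168 exonic bases with it on the same strand. Its call was lost without replicate 1 of γd, or replicate 1 of α′/β′ap+m (adjusted p = 0.0281 to 0.057, with the difference under 2-fold where p passed) and without both γd libraries (log2 difference -0.91, adjusted p = 0.0723).

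**Figure D3:**
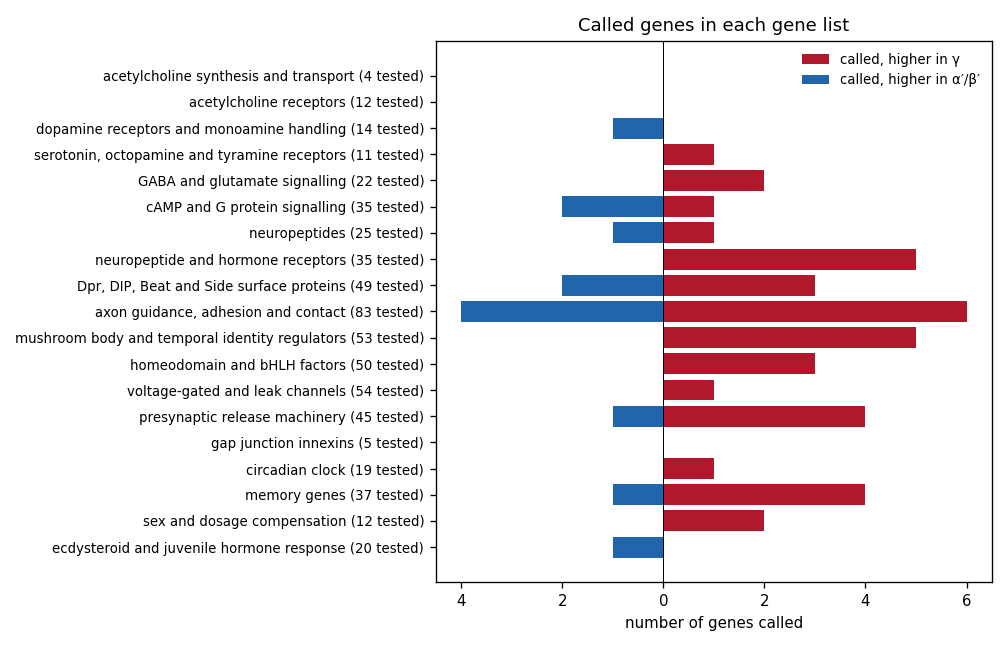
Bars give the number of genes called in each of 19 gene lists, to the right for genes higher in γ and to the left for genes higher in α′/β′, with the number tested beside each name. The largest counts are those of axon guidance, adhesion and contact (6 and 4), of the neuropeptide and hormone receptors (5 and 0) and of mushroom body identity (5 and 0), and 3 lists have none.

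Over the 19 lists together, 555 different genes were tested, of which 34 were higher in γ and 13 higher in α′/β′, or 8.47%, against 2.82% of all genes. Their median difference was 0.23, against -0.16 for all genes. By list the share called ran from 0%, in 3 lists, and 1.85% for the channels to 16.7% for sex determination. The lists hold neuronal genes chosen with results of these libraries known, so these shares are a description.

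Of 45 genes of the presynaptic release machinery, 4 were called higher in γ and 1 higher in α′/β′, or 11.1% against 2.82% of all genes tested. Rbp (FBgn0262483; chromosome 3R, 15374635 to 15402543, plus strand) and Rim (FBgn0053547; chromosome 3R, 17872748 to 17916578, minus strand) are scaffold proteins of the presynaptic active zone. Rbp had 6473 and 5613 TPM in γd and 4537 and 1955 TPM in γm+d, versus 1383 and 1329 TPM in α′/β′ap+m and 1719 and 873 TPM in α′/β′m (log2 difference 1.45, SE 0.27, adjusted p = 0.00349), and it shares 327 exonic bases with h-cup on the opposite strand. Rim had 2799.7 and 3646 TPM in γd and 3040.4 and 1940.1 TPM in γm+d, versus 1106 and 1034 TPM in α′/β′ap+m and 1449.7 and 1032 TPM in α′/β′m (log2 difference 1.10, SE 0.17, adjusted p = 0.000779). Their groups did not overlap. brp, the central scaffold of the active zone, overlapped between the classes at 3081 to 4125 TPM and 3128 to 4369 TPM (log2 difference -0.21, SE 0.16, adjusted p = 0.591). The synaptotagmins Sytalpha and Sytbeta, known from peptide release, were higher in γ: Sytalpha (FBgn0261089; chromosome 2L, 17592260 to 17604387, plus strand) had 37.8 and 115 TPM in γd and 161 and 258 TPM in γm+d, versus 29.3 and 38 TPM in α′/β′ap+m and 11.8 and 21.4 TPM in α′/β′m (log2 difference 3.04, SE 0.43, adjusted p = 0.00032), and Sytbeta (FBgn0261090; chromosome 3L, 15014695 to 15064977, minus strand) 87.2 and 33.9 TPM in γd and 63.7 and 85.9 TPM in γm+d, versus 17.2 and 19.4 TPM in α′/β′ap+m and 4.73 and 12.5 TPM in α′/β′m (log2 difference 3.18, SE 0.54, adjusted p = 0.00198). γd replicate 1 of Sytalpha lay just below the highest α′/β′ library, so that its groups overlapped. Syt12 (FBgn0261085; chromosome X, 13359248 to 13368179, plus strand) was higher in α′/β′, with 12.1 and 45.1 TPM in γd and 28.3 and 40.3 TPM in γm+d, versus 191 and 178 TPM in α′/β′ap+m and 117 and 124 TPM in α′/β′m (log2 difference -1.77, SE 0.35, adjusted p = 0.00584). Among 54 voltage-gated and leak channel genes, KCNQ (FBgn0033494; chromosome 2R, 10145897 to 10192394, minus strand), a voltage-gated potassium channel, was the one call, with 19.8 and 109 TPM in γd and 201 and 273 TPM in γm+d, versus 47.5 and 43.1 TPM in α′/β′ap+m and 23.5 and 68.2 TPM in α′/β′m (log2 difference 1.95, SE 0.42, adjusted p = 0.0114). That 1 call was 1.85% of the channel genes, against 2.82% of all genes tested. γd replicate 1 lay below all α′/β′ libraries of KCNQ, so the groups overlapped, and the α/β libraries were all higher, at 536 to 836 TPM. Its call was lost without normalization beyond TPM (log2 difference 1.28, adjusted p = 0.221), in the 8 libraries alone (adjusted p = 0.0671), without a variance trend (adjusted p = 0.051) and with 1 value per subtype (adjusted p = 0.155). Calls were lost for Rbp without both γd libraries (log2 difference 1.06, adjusted p = 0.099), and for Rim without both γd libraries (log2 difference 0.99, adjusted p = 0.0153, with the difference under 2-fold).

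Of 37 memory genes, 4 were higher in γ and 1 higher in α′/β′ (13.5% called, against 2.82% of all genes tested). Oamb, Fas2 and klg were described above. rad (FBgn0265597; chromosome X, 12988615 to 13079070, plus strand), named for its role in anaesthesia-resistant memory, had 1891 and 2005 TPM in γd and 1867 and 1106 TPM in γm+d, versus 672 and 647 TPM in α′/β′ap+m and 1013 and 649 TPM in α′/β′m (log2 difference 1.05, SE 0.21, adjusted p = 0.00762), and pum (FBgn0003165; chromosome 3R, 9066343 to 9237682, minus strand), a translational repressor needed for long-term memory, 417 and 584 TPM in γd and 512 and 422 TPM in γm+d, versus 999.5 and 975 TPM in α′/β′ap+m and 1108 and 816 TPM in α′/β′m (log2 difference -1.08, SE 0.24, adjusted p = 0.0138). In both genes the groups were apart, by little more than 2-fold. The call of rad was lost without replicate 2 of γd, replicate 1 of γm+d, replicate 2 of α′/β′ap+m, or replicate 2 of α′/β′m (adjusted p = 0.0321 to 0.0364, with the difference under 2-fold) and without both γd libraries (log2 difference 0.87, adjusted p = 0.108). That of pum was lost without replicate 1 of γd, or replicate 2 of γm+d (adjusted p = 0.0354 to 0.0361, with the difference under 2-fold).

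bru1 (FBgn0000114; chromosome 2L, 12175004 to 12313438, plus strand) and bru2 (FBgn0262475; chromosome 2L, 12344219 to 12397528, plus strand) encode RNA-binding proteins of the Bruno family and lie near each other on chromosome 2L. bru2 had 249 and 169 TPM in γd and 553 and 599 TPM in γm+d, against 16.5 and 14.3 TPM in α′/β′ap+m and 21.4 and 19.4 TPM in α′/β′m (log2 difference 4.85, SE 0.57, adjusted p = 7.47e-05), with 160.3 to 1094 TPM in α/β. bru1, named after its values were seen, had 160.0 and 309 TPM in γd and 343 and 484 TPM in γm+d, versus 58.8 and 48.7 TPM in α′/β′ap+m and 33.4 and 70.2 TPM in α′/β′m (log2 difference 2.89, SE 0.33, adjusted p = 6.61e-05). msi (FBgn0011666; chromosome 3R, 25516118 to 25608423, plus strand), the RNA-binding protein Musashi and also named after its values were seen, was higher in α′/β′, with 91.2 and 45 TPM in γd and 43.4 and 30.8 TPM in γm+d, versus 646 and 701 TPM in α′/β′ap+m and 537 and 448 TPM in α′/β′m (log2 difference -3.39, SE 0.44, adjusted p = 0.000143). No library of one class entered the range of the other in any of these 3 genes, though the rule that named bru2 requires this.

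The remaining genes with the largest differences towards γ were of various kinds. Mur82C (FBgn0037260; chromosome 3R, 4541356 to 4543215, plus strand), a mucin-related gene, had 298 and 124 TPM in γd and 67.4 and 44 TPM in γm+d, versus 1.25 and 0.77 TPM in α′/β′ap+m and 0.18 and 7.24 TPM in α′/β′m (log2 difference 5.84, SE 0.75, adjusted p = 0.000136). It lies on the opposite strand inside CG34357 (FBgn0085386; chromosome 3R, 4491943 to 4558067, minus strand), which itself had 966 and 668 TPM in γd and 295 and 683 TPM in γm+d, versus 50.4 and 35.7 TPM in α′/β′ap+m and 26.1 and 41.6 TPM in α′/β′m (log2 difference 4.29, SE 0.29, adjusted p = 8.94e-08). Neither gene overlapped between the classes, as the rule that named both requires. Mur82C was higher in both γd libraries than in both γm+d libraries. Bx (FBgn0265598; chromosome X, 18515428 to 18572809, plus strand), the LIM-only protein Beadex, had 1508 and 1397 TPM in γd and 1022 and 1134 TPM in γm+d, against 113 and 101 TPM in α′/β′ap+m and 93.8 and 95.5 TPM in α′/β′m (log2 difference 3.68, SE 0.28, adjusted p = 4.5e-07). The α/β libraries of Bx held 470.1 to 1296 TPM. CG11768 (FBgn0037625; chromosome 3R, 8749206 to 8768200, minus strand) had 1197 and 319 TPM in γd and 397 and 201 TPM in γm+d, versus 10 and 12.7 TPM in α′/β′ap+m and 57.6 and 23.6 TPM in α′/β′m (log2 difference 4.79, SE 0.66, adjusted p = 0.000266), and it shares 7398 exonic bases with CG34135 on the same strand and 1805 with Nasp on the opposite strand. CG12640, CG34354, CG3009 and CG32137, genes without a name, had log2 differences of 4.71, 4.20, 4.07 and 3.71 (adjusted p = 0.000952, 6.17e-05, 0.000914 and 0.00375). CG12640 was higher in γd, at 482 and 511 TPM, than in γm+d, at 91.3 and 89.0 TPM, although this difference was not called (adjusted p = 0.145). numb (FBgn0002973; chromosome 2L, 9437469 to 9464184, plus strand), an inhibitor of Notch named after its values were seen, had 28.4 and 80.9 TPM in γd and 56 and 57.9 TPM in γm+d, versus 3.44 and 7.13 TPM in α′/β′ap+m and 8.21 and 15.5 TPM in α′/β′m (log2 difference 3.55, SE 0.54, adjusted p = 0.000605).

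**Figure D4:**
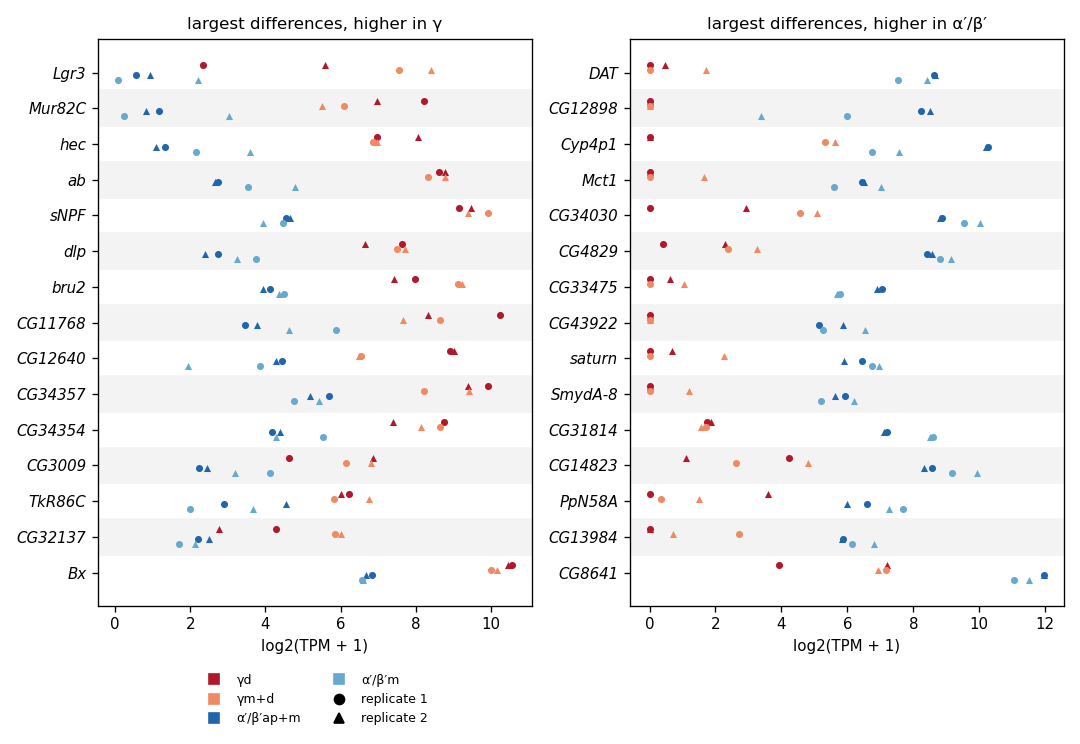
Each symbol is the level of a gene in 1 library, as log2(TPM + 1), for the 15 called genes with the largest differences towards γ (left) and the 15 towards α′/β′ (right) whose groups do not overlap; colours give the 4 subtypes and shapes the 2 replicates. In the right panel most γ symbols sit at or near 0, whereas in the left panel several α′/β′ symbols lie well above it.

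The 15 leading genes towards α′/β′ had mean levels of 0 to 106 TPM in γ. CG8641 (FBgn0035733; chromosome 3L, 7058930 to 7077462, minus strand) was the most abundant of them, with 14.2 and 147 TPM in γd and 142 and 122 TPM in γm+d, against 4001 and 3985 TPM in α′/β′ap+m and 2147 and 2928 TPM in α′/β′m (log2 difference -5.05, SE 0.78, adjusted p = 0.000781). CG4829 (FBgn0030796; chromosome X, 16811699 to 16826494, plus strand) had 0.32 and 3.9 TPM in γd and 4.16 and 8.59 TPM in γm+d, versus 339.5 and 376 TPM in α′/β′ap+m and 451 and 568 TPM in α′/β′m (log2 difference -5.82, SE 0.57, adjusted p = 1.28e-05). CG31814 (FBgn0051814; chromosome 2L, 13676860 to 13717320, minus strand) had 2.35 and 2.64 TPM in γd and 2.3 and 1.97 TPM in γm+d, versus 147 and 137 TPM in α′/β′ap+m and 388 and 361 TPM in α′/β′m (log2 difference -5.20, SE 0.58, adjusted p = 5.32e-05). γ libraries held between 1.97 and 2.64 TPM of this last gene, while the α/β libraries held 158 to 349 TPM. Cyp4p1 (FBgn0015037; chromosome 2R, 9240041 to 9242139, plus strand), a cytochrome P450 gene, varied within both classes, with 0 and 0 TPM in γd and 39 and 48.3 TPM in γm+d, versus 1231 and 1183 TPM in α′/β′ap+m and 107 and 189 TPM in α′/β′m (log2 difference -5.96, SE 1.13, adjusted p = 0.00451). γd lay below γm+d (log2 difference -5.34, SE 0.61, adjusted p = 0.00276) and α′/β′m below α′/β′ap+m (log2 difference -3.21, SE 0.61, adjusted p = 0.0293), and the call between the classes was lost without both γd libraries (log2 difference -3.16, adjusted p = 0.0719). CG12898 (FBgn0033516; chromosome 2R, 10406975 to 10407445, minus strand) had 0 and 0 TPM in γd and 0 and 0 TPM in γm+d, versus 302 and 362 TPM in α′/β′ap+m and 62.5 and 9.42 TPM in α′/β′m (adjusted p = 0.00375). It was listed at 0 in every γ library, against which TPM gives no fold.

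Many genes were listed at 0 in γd, the libraries with the fewest genes above 0. Of all 8646 genes tested, 3352 were at 0 in γd replicate 1 and 1818 in γd replicate 2, whether called or not. Of the 123 genes higher in α′/β′, 57 were listed at 0 in at least 1 γ library. Of these, 55 were at 0 in γd replicate 1, 36 in both γd libraries and 5 in all 4 γ libraries. None of the 121 genes higher in γ was at 0 in all 4 α′/β′ libraries. Of these counts only the 55 has one over all genes tested beside it, the 3352. The others are a description and are not read as a trait of the called genes. Among the 4869 genes above 0 TPM in all 8 libraries, 124 were higher in γ and 91 higher in α′/β′.

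Called genes often lay beside one another, a property the comparison did not use and one looked at after the values were seen. Of 122 placed genes higher in α′/β′, 49 (40.2%) overlapped or lay within 5000 bases of another called gene of the same direction with other values. Of 8335 placed genes that were not called, 254 (3.05%) lay so close to a gene called higher in α′/β′. For genes higher in γ the numbers were 34 of 120 (28.3%) and 230 of 8335 (2.76%). CG8641 holds CG14823 (-5.19) on the opposite and CG34030 (-5.91) on its own strand. Ddr (FBgn0053531; chromosome 2L, 6253123 to 6323466, plus strand), a discoidin-domain receptor tyrosine kinase, had 0 and 8.04 TPM in γd and 10 and 3.93 TPM in γm+d, versus 169.6 and 176 TPM in α′/β′ap+m and 136 and 200.4 TPM in α′/β′m (log2 difference -4.92, SE 0.87, adjusted p = 0.00262), and 4 genes inside it were called with it, CG13984 (-5.06), CG43922 (listed at 0 in all 4 γ libraries), CG13983 (-4.81) and AANATL2 (-4.59). nuf (FBgn0013718; chromosome 3L, 14190870 to 14233250, plus strand), which encodes a Rab11 effector, had 33.4 and 53.8 TPM in γd and 147 and 124 TPM in γm+d, versus 522 and 456 TPM in α′/β′ap+m and 562 and 463 TPM in α′/β′m (log2 difference -2.40, SE 0.43, adjusted p = 0.00321), a call lost without both γd libraries (log2 difference -1.86, adjusted p = 0.0567), and holds saturn (-5.35) and CG7768 (-4.38) on its own strand. Fili (FBgn0085397; chromosome 2R, 21872030 to 21946259, plus strand), a leucine-rich repeat protein, holds PpN58A (-5.10), a protein phosphatase gene, and had 0 and 1.87 TPM in γd and 2.76 and 3.18 TPM in γm+d, versus 43.1 and 47.2 TPM in α′/β′ap+m and 70.8 and 60.1 TPM in α′/β′m (log2 difference -3.82, SE 0.68, adjusted p = 0.00272). The single values in parentheses after the nested genes are log2 differences. By contrast CG12898, CG33475 (-5.44) and CG33476 (-4.32) lie inside SLO2, whose level overlapped between the classes at 597 to 932 TPM and 583 to 599 TPM (log2 difference 0.27, SE 0.32, adjusted p = 0.754). Neighbours without overlap included Mct1 (-5.94), a monocarboxylate transporter gene, and SmydA-8 (-5.25), 141 bases apart on opposite strands, and Dyb (-2.10) and Lac, 273 bases apart on the same strand. Pairs that share exons were counted too, such as CG11768 and CG34135, with 7398 shared bases on the same strand. Values of such pairs are not independent, and their part in these shares was not tested. The libraries are of nuclear RNA, and how far reads of 1 gene's unspliced transcript entered another gene's value was not tested.

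The other genes described from those higher in α′/β′ were single examples. rhea (FBgn0260442; chromosome 3L, 8545001 to 8574409, plus strand), the integrin partner Talin, had 118 and 108 TPM in γd and 80.8 and 141 TPM in γm+d, versus 564 and 556 TPM in α′/β′ap+m and 369 and 618 TPM in α′/β′m (log2 difference -2.10, SE 0.26, adjusted p = 0.000111). Dyb (FBgn0033739; chromosome 2R, 12437345 to 12452916, plus strand), Dystrobrevin, had 205 and 296 TPM in γd and 229 and 349 TPM in γm+d, versus 959 and 966 TPM in α′/β′ap+m and 1072 and 1692 TPM in α′/β′m (log2 difference -2.10, SE 0.25, adjusted p = 8.58e-05). The α′/β′ libraries of both lay above all γ libraries. Hs3st-A (FBgn0053147; chromosome 2R, 18718114 to 18754675, plus strand), a heparan sulfate sulfotransferase, was very even within each class, with 129 and 103 TPM in γd and 89.2 and 92.5 TPM in γm+d, versus 539 and 532 TPM in α′/β′ap+m and 521 and 535 TPM in α′/β′m (log2 difference -2.24, SE 0.24, adjusted p = 3.13e-05). Smurf (FBgn0029006; chromosome 2R, 17592791 to 17604461, plus strand), a ubiquitin ligase that dampens BMP signalling, had 113 and 199 TPM in γd and 246 and 287 TPM in γm+d, versus 745 and 757 TPM in α′/β′ap+m and 553 and 607 TPM in α′/β′m (log2 difference -1.64, SE 0.26, adjusted p = 0.000852). fz3 (FBgn0027343; chromosome X, 769945 to 784222, plus strand), a Frizzled-family receptor, had 0 and 0.73 TPM in γd and 0.39 and 0.6 TPM in γm+d, versus 75.6 and 69.3 TPM in α′/β′ap+m and 42.2 and 76.4 TPM in α′/β′m (log2 difference -4.84, SE 0.98, adjusted p = 0.00744). These 5 were named after their values were seen, and in none did the groups overlap. Of 90 histone genes tested 11 were called higher in α′/β′, but 9 of them are His2A copies and 2 His1 copies whose reads cannot be told apart. Genes with identical values in every library counted once left 235 of the 244 calls.

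The calls were also counted by chromosome arm. Over all genes tested, 1.4% were called higher in γ and 1.42% higher in α′/β′. On the X chromosome, 24 genes were higher in γ and 14 higher in α′/β′ of 1435 tested. On 3R the counts were 31 and 15 of 2033, on 2L 24 and 34 of 1606, on 2R 14 and 29 of 1711, on 3L 26 and 30 of 1690, and on chromosome 4 they were 1 and 0 of 77. No difference between arms was tested.

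Within the γ class, 100 of the 8646 genes (1.16%) were called between γd and γm+d, 21 higher in γd and 79 higher in γm+d. Of these, 16 were among the 244 class calls, 4 higher in γd and 12 higher in γm+d. Within α′/β′, 95 genes (1.1%) were called, 70 higher in α′/β′m and 25 higher in α′/β′ap+m, and 2 of them were among the 244. norpA and Cyp4p1, given above, are 2 of the genes that also split within a class.

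Transcripts of 1 gene were compared with each other in limma's diffSplice, which asks whether the transcripts of a gene differ unequally between the classes. Of 3660 genes with 2 or more transcripts at 10 TPM, 41 (1.12%) had an adjusted p under 0.05. Shares are percentages of the gene's summed TPM. cpx (complexin), which clamps and promotes vesicle fusion, had 18 transcripts tested (adjusted p = 8.63e-08). Its transcript cpx-RG was at 2.81, 3.32, 4.51 and 3.05% in the 4 α′/β′ libraries and at or near 0 in the 4 γ libraries, although the gene itself was not called (log2 difference 0.29, SE 0.18, adjusted p = 0.511). mub, an RNA-binding protein with KH domains, had 9 transcripts (adjusted p = 3.91e-07). mub-RC made up 20.8 ± 3.59% (SD, n = 4) of the gene in α′/β′ and 0.368 ± 0.459% in γ, while mub-RM made up 24.6 ± 3.18% and 53.4 ± 5.63%. In diffSplice's test of single transcripts mub-RC passed (adjusted p = 9.29e-06) and mub-RM did not (adjusted p = 0.557). The summed level of mub was not called (log2 difference 0.03, SE 0.19, adjusted p = 0.973).

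trio, a guanine nucleotide exchange factor known from mushroom body axons, had 6 transcripts (adjusted p = 0.000143). The gene as a whole had 566 and 564 TPM in γd and 702 and 862 TPM in γm+d, versus 1689.8 and 1612 TPM in α′/β′ap+m and 793 and 1284 TPM in α′/β′m and was not called (log2 difference -1.07, SE 0.32, adjusted p = 0.0871), although it passed without α′/β′m replicate 1 (log2 difference -1.31, adjusted p = 0.0353). The transcript trio-RE made up 66.6, 61.2, 41.9 and 42.8% of the gene in the α′/β′ libraries and 0, 0.11, 1.65 and 5.18% in the γ libraries. trio-RD took 90.7 ± 10.3% in γ and 30.9 ± 9.89% in α′/β′. In diffSplice's test of single transcripts trio-RE passed (adjusted p = 0.00414) and trio-RD did not (adjusted p = 0.341). The abundant trio transcript thus differed between the classes, while the summed levels of γm+d replicate 2 and α′/β′m replicate 1 overlapped. ATP8B, a phospholipid flippase gene, had 6 transcripts (adjusted p = 2.84e-05), and ATP8B-RF was at 413.5, 409, 778 and 849 TPM in α′/β′ and at 0, 43.5, 0 and 0.8 TPM in γ, with γd replicate 2 the highest γ library. As shares of the gene these were 51.7, 49.2, 84.3 and 66% in α′/β′ and 0, 29.55, 0 and 0.22% in γ. CG4829, already called as a gene, had 6 transcripts (adjusted p = 3.91e-07), and was not called among genes with transcripts of at least 10 TPM in 4 libraries. CG4829-RA was at 219.8, 193.2, 276.3 and 321.8 TPM in the α′/β′ libraries and at 0 in all γ libraries, where the whole gene was so low that shares of its transcripts cannot be read.

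fru, whose summed level was higher in γ, was also among the 41 (10 transcripts, adjusted p = 0.00118), and it is described after its values were seen. fru-RH made up 18.9, 10.8, 5.88 and 2.52% in the 4 γ libraries and was listed at 0 in all 4 α′/β′ libraries, and fru-RO had the same values throughout. fru-RC made up 15.1 ± 6.43% in γ and 43.3 ± 3.70% in α′/β′. In diffSplice's test of single transcripts fru-RH passed (adjusted p = 0.00928) and fru-RC did not (adjusted p = 0.173). All 5 leading genes kept an adjusted p under 0.05 when any 1 of the 8 libraries was left out (highest 0.00626, for trio), but the count of 41 moved with the libraries. It was 16 to 183 in those fits, with 183 without γm+d replicate 2, 23 and 16 without α′/β′ap+m replicate 1 or 2, and 17 without α′/β′m replicate 2.

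**Figure D5:**
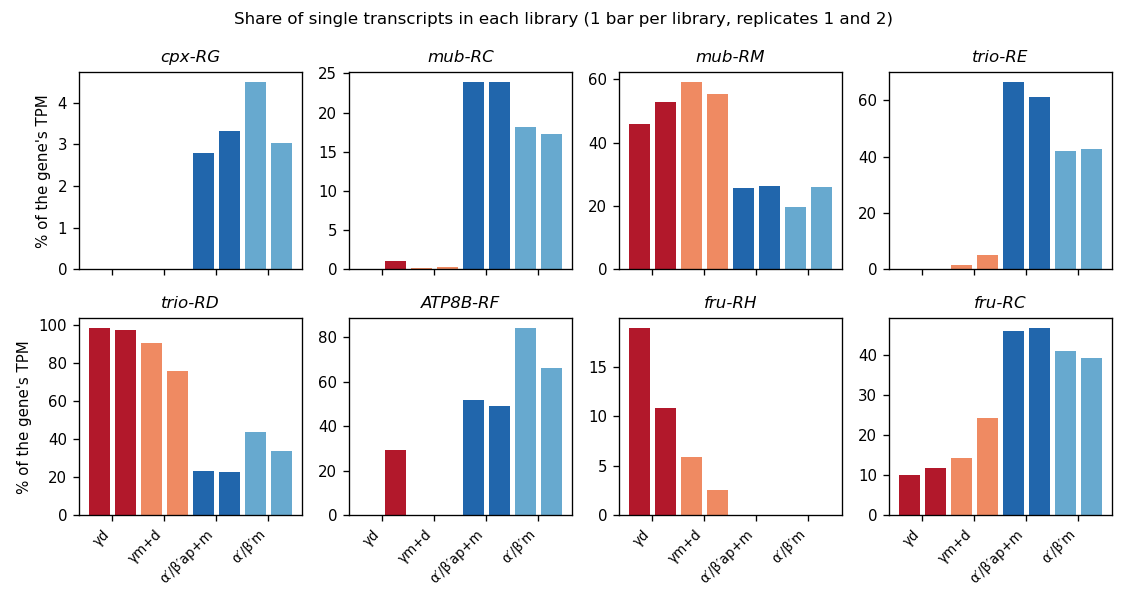
Bars give the share of a single transcript in its gene's summed TPM, in percent, with 1 bar per library and replicates side by side; each panel has its own axis from 0. trio-RE, mub-RC and ATP8B-RF are high in the 4 α′/β′ libraries, whereas trio-RD and mub-RM are higher in the 4 γ libraries. ATP8B-RF also reaches 29.55% in γd replicate 2.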

How the data were processed

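Nuclear RNA of 14 libraries from 7 Kenyon cell subtypes, 2 biological replicates each, was measured by paired-end RNA-seq after pull-down of tagged nuclei and amplification. The authors trimmed the reads, pseudo-aligned them with kallisto (version not given in the sources used here) to the Ensembl release 91 transcripts of BDGP6, dropped the spike-ins, the tag reporter and rRNA, and rescaled what was left to TPM, and the deposited tables hold TPM per gene and per transcript. Each library sums to 1000000 TPM, so that the depth behind a value is unknown and no interval for counting error can be given.

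The study's own fit used estimated counts, which are not used here. Genes reaching 10 TPM in any library entered, log2(TPM + 1) was quantile-normalized over all 14 libraries, and limma 3.58.1 (R 4.3.3) fitted 3 class means with a variance trend. The contrast was γ minus α′/β′, with Benjamini-Hochberg adjustment and calls at an adjusted p under 0.05 and a 2-fold difference. A 7-subtype fit gave the contrasts within a class, and diffSplice in limma compared transcripts. The class fit treats the 2 subtypes of a class as replicates, although they are nested and replicates share a driver. Scripts were tested on simulated data. Exact permutation tests used scipy 1.17.1. Gene positions come from Ensembl release 115 (BDGP6), matched by gene ID for 8577 of the tested genes. No sequences are shown, and 1 gene that the naming rule took is not reported here.

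Named genes were the 15 per direction with the largest differences among called genes that did not overlap between classes and had at least 10 TPM in 3 of the 4 libraries of the higher class, up to 4 called members per list and direction, the label checks, and the 5 isoform genes of smallest p. SPR, kek3, bru1, msi, numb, Ddr, nuf, Fili, rhea, Dyb, Hs3st-A, Smurf, fz3 and the fru isoforms were named after their values were seen, as were the genes given for contrast (Dop1R1, Dop1R2, Rdl, rut, dnc, chinmo, brp, SLO2, ple, Vmat and ninaE) and the nested CG13983, AANATL2, CG7768 and CG33476. Members and lists were chosen with earlier results of these data known. Alternatives changed the pseudocount, normalization, filter, variance model, unit of replication, weights, replicate block and libraries. The fits without both γd libraries, with only genes above 0 TPM in all 8 libraries and with the α′/β′ap+m replicates averaged were chosen after seeing the data.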

Additional observations from a re-analysis of the deposited data

Results flagged for a closer look

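Among 168 groups of 4 libraries tested over the named genes, 9 had a library far from the other 3 by Dixon's test, where chance gives about 5%. In α′/β′m replicate 1, CG34354 (45.46 TPM), Fas2 (196.05 TPM) and rad (1012.66 TPM) were high and fz3 (42.24 TPM) was low for the α′/β′ class. In γm+d replicate 2, Mct1 (2.16 TPM) and SmydA-8 (1.31 TPM) were high and rad (1106.01 TPM) was low for the γ class. The other γ libraries were at 0 for Mct1 and SmydA-8, so this test would flag any value above 0 there. In γd replicate 1, CG8641 (14.19 TPM) was low. In γd replicate 2, hec (263.51 TPM) was high. In none of these genes did the γ and α′/β′ libraries overlap. CG34354, Mct1, SmydA-8 and CG8641 were named only by a rule that requires this, so for them it is no result.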

How the results depend on the processing

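The counts of 121 genes higher in γ and 123 higher in α′/β′ stayed within 1.5 times under most settings. They moved further in the subtype model, which takes the spread within subtypes only (250 and 312, or 562 in all), with library quality weights (606 and 669, or 1275), and with 1 value per subtype, which leaves fewer samples (26 and 30, or 56). Without normalization beyond TPM, 58 were higher in γ, and without both γd libraries 80 were higher in α′/β′. Leaving out each of the 8 libraries in turn gave 83 to 128 and 99 to 155, or 186 to 283 in all. The count of isoform genes went from 41 to 62 with a pseudocount of 5 and to 27 with the 8 libraries alone, and ranged over 16 to 183 as libraries were left out in turn. The within-class counts of 100 and 95 became 255 and 43 without normalization beyond TPM, and the cause of these shifts was not tested. None of the 81 named calls changed direction in any setting. The uncalled elav (-0.15) was at 0.018 without normalization beyond TPM and at 0.58 with median-ratio scaling, and the uncalled ey (-0.41) at 0.27 with median-ratio scaling. Of the 81, 42 were lost with 1 value per subtype, 26 without both γd libraries, 16 without a variance trend and 15 without normalization beyond TPM (adjusted p = 0.0645 to 0.244). Median-ratio scaling ended 9 (adjusted p = 0.0662 to 0.541), among them norpA, CCKLR-17D3, DIP-gamma, unc-5, pum, Kr-h1, SPR and kek3, and trio passed in the subtype model and with weights.

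The labels and the study's methods do not say whether libraries with the same replicate number share a batch. The correlation of the replicate 1 minus 2 differences between subtypes was 0.000422 to 0.208, in 1 of 6 pairs over 0.1. These values cannot settle the question. With the replicate number as a block, 117 genes were higher in γ and 122 higher in α′/β′ (233 of the 244 remained), CCKLR-17D3 and trn lost their calls (adjusted p = 0.0559 and 0.0527), 42 genes had isoform differences, and 145 and 79 were called within the classes. TPM keeps no depth, so what sequencing depth limits could not be read from these values, and the many zeros of the γd libraries limit low genes most.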
